A study of Mus musculus with 18 samples.

Results

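The genes described here encode the subunits of the transcription factor NF-kB, proteins of the IkB family and a feedback regulator. The subunit genes are Nfkb1, Nfkb2, Rel, Rela and Relb, the IkB-family genes are Nfkbia, Nfkbie, Nfkbid and Nfkbiz, and the feedback regulator is Tnfaip3. They were taken by symbol from the annotation, 10 of the 56748 gene IDs in the count files, and all 10 had enough counts to be tested. The set was chosen by a measured value, the fold change of Nfkbid between high fat and normal diet, which was among the strongest falls, so the members' values in that comparison are given as a description, without a test. The libraries were made from CD8 T cells of the spleen of wild-type (WT) mice. Animals of the first group ate normal diet (ND) for 12 weeks and those of the second ate high fat diet (HFD) for 12 weeks. The third group, the switched diet (SW), had 6 weeks of high fat diet, followed by normal diet for the other 6. Each diet has 6 libraries, 18 in all. Whether each library is a different mouse is not in the labels, so p-values measure the spread between these libraries, which may be technical.

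NF-kB proteins are dimers of Rel-family subunits that wait in the cytoplasm bound to inhibitors of the IkB family. Signals from the T cell receptor, costimulation or inflammatory cytokines activate a kinase complex that marks the inhibitor for destruction, and the dimer enters the nucleus and switches on genes that include several of its own inhibitors. Nfkbia and Nfkbie encode cytoplasmic inhibitors, Nfkbid and Nfkbiz encode nuclear members of the IkB family that bind dimers on chromatin, and Tnfaip3 encodes A20, a ubiquitin-editing enzyme that ends the upstream signal.

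Sites for NF-kB before the starts of these genes are shown first, because several of these genes are themselves known NF-kB targets. RefSeq start sites on GRCm38.p6 were at hand for 7 of the 10 members, with 12 starts in all. The windows hold the 250 bases before each start, and both strands were searched for the kB consensus. It was found in 8 of the 12 windows and before at least 1 start of 6 of the 7 members, Rela being the exception. Of 32851 such windows of all genes, 2382 (7.25%) held it. A match describes letters and does not show that the site is bound. The windows of 3 IkB-family genes are printed 5′ to 3′ on the strand of the gene with the consensus matches in capitals, and for Tnfaip3 the 30 bases next to the start. Nfkbid has a match on both strands at the same place and a second place further on, at chr7:30422156-30422405 (+), inside the gene before its second start. Its first start, at chr7:30421481-30421730, had no match. The Nfkbia window is chr12:55492648-55492897 (-), that of Nfkbie is chr17:45555450-45555699 (+) and the Tnfaip3 stretch is chr10:19015411-19015440 (-). This stretch lies inside the Tnfaip3 gene as annotated in GENCODE M21, and its window overlaps the untranslated region. The windows of Nfkb2 and Rel with a match also overlap their own annotated genes, while those of Nfkbia and Nfkbie do not.
Nfkbid, second start: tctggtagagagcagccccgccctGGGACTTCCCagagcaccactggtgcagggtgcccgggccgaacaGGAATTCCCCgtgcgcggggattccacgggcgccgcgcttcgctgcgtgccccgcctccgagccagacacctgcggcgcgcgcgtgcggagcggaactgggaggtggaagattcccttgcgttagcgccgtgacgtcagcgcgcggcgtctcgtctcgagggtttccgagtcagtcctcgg
Nfkbia: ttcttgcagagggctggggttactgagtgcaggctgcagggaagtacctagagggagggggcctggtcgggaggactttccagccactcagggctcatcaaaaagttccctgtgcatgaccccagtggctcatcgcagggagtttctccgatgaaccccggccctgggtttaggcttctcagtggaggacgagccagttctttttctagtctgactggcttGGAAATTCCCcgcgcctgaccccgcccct
Nfkbie: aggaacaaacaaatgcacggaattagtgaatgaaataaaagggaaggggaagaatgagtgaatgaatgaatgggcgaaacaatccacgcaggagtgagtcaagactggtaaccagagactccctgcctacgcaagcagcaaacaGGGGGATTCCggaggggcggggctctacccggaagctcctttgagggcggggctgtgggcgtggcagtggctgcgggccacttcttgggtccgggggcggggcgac
Tnfaip3: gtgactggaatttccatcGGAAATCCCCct

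The libraries held 11947339 to 16398340 counts. Transcripts that define CD8 T cells were abundant in each: Cd8a had 17235 to 26205 counts, and the summed level of 6 CD8 T cell markers was 4579 to 5131 CPM (counts scaled by library size and TMM factor) over the 18 libraries. The B cell markers were uneven: Pax5 had at most 7 counts and was at 0 in 6 libraries, and Ebf1 had at most 6 and was at 0 in 11, while Cd79b had 201 to 346, Cd22 75 to 254 and Ighm 5344 to 9874. Ighm was higher in HFD than in ND by 0.24 on the log2 scale (edgeR adjusted p = 0.0361). Markers of monocytes, macrophages and neutrophils summed to 77.2 to 181 CPM in ND, 86.2 to 129.8 in SW and 115 to 269 in HFD, highest in HFD 1. Of these 10 markers 7 were tested, and in HFD against ND all 7 were above 0 with a median of 0.80. Of the 7, edgeR and limma-voom called 0 and DESeq2 1, and 4 had an unadjusted p under 0.05 (edgeR). Erythroid markers were uneven in HFD, with a sum of 11.5 to 336 CPM against 14.3 to 40.1 in ND. Of these 7 markers 6 were tested, and in HFD against ND all 6 were above 0 with a median of 2.01. All 6 had an unadjusted p under 0.05 (edgeR), as did 14.9% of all genes. Of the 6, edgeR and limma-voom called 0 and DESeq2 5. DESeq2, which called 3.08% of all genes, also called the dendritic cell marker Siglech and the natural killer cell marker Gzma higher. The erythroid sum was highest in the library HFD 4 and next in HFD 1 (160.3). HFD 4 also had the fewest genes with a count, 17570, against a median of 19626. The RNA is from sorted cells in bulk, in which fewer cells of a type and less RNA per cell cannot be told apart. The sorting purity of each library was not analysed here.

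The inhibitor Nfkbia was the most abundant member and the subunit gene Rel the least, when levels were compared per length as FPKM. Nfkbia stood at 114 ± 13.9 FPKM (SD, n = 18 libraries), above 97.2% of the genes tested. Rela, which encodes the subunit with the main transactivating activity of the classical pathway, followed at 53.2 ± 2.89 FPKM. Both were apart from their neighbours in every library: Nfkbia was above Rela in 18 of 18, Rela above Nfkbid in 18 of 18, and the ranges did not touch. Then came Nfkbid (24.6 ± 3.99 FPKM), Nfkb1 (21.5 ± 1.90), Tnfaip3 (19.9 ± 12.4) and Nfkb2 (19.6 ± 2.15). These 4 did not separate beyond their spread, since Nfkbid was above Nfkb1 in 13 of 18 libraries, Nfkb1 above Tnfaip3 in 14 and Tnfaip3 above Nfkb2 in 5. Relb stood at 16.5 ± 1.80, Nfkbie at 15.3 ± 1.17, Nfkbiz at 12.1 ± 2.14 and Rel at 7.69 ± 0.662 FPKM. Their ranges overlapped too, although Nfkbiz was above Rel in 18 of 18 libraries. Raw counts were at least 533 in every library for every member, which leaves a counting error of at most 4.33% of the value.

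**Figure D1:**
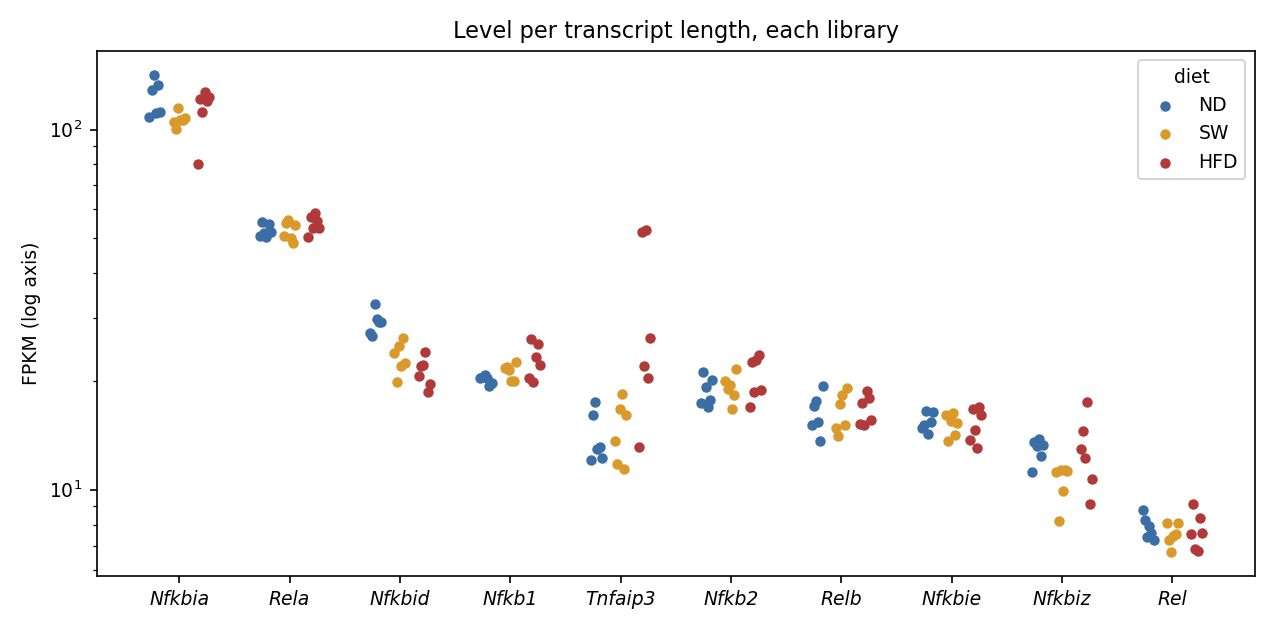
Level of each member per length (FPKM, logarithmic axis), 1 point per library, coloured by diet, 6 libraries per diet. Nfkbia lies above all others, Rela above the rest apart from the 2 highest HFD libraries of Tnfaip3, and Tnfaip3 has the widest spread, from 11.4 to 52.4 FPKM.

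Nfkbid (ENSMUSG00000036931, chr7:30421732-30428746, plus strand) encodes IkBNS, a nuclear member of the IkB family induced by antigen receptor signals. It was lower in the HFD libraries and in the SW libraries than in those of ND. Its level in ND was 61.1 CPM in the lowest library, 66.3 at the median and 74.9 in the highest. In HFD the corresponding values were 42.4, 48.0 and 55.1 CPM, and in SW 45.0, 52.4 and 60.9. All 6 HFD libraries and all 6 SW libraries were below all 6 ND libraries, although the highest SW library was below the lowest ND library by a margin that is small beside the spread. The change in HFD was -0.46 on the log2 scale (SE 0.07), or a change of -27.4%, with means of 48.0 ± 4.50 against 66.2 ± 4.98 CPM (SD, n = 6). The change in SW against ND was -0.32 (SE 0.07), with a mean of 52.9 ± 5.70 CPM. SW against HFD differed by 0.14 (SE 0.07), and the groups overlapped, with 2 SW libraries above all of HFD. Nfkbid was the gene that the choice of the set rests on and both SW comparisons share libraries with that choice, so no p is given for any of its 3 differences.

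In HFD against ND, edgeR called 222 genes at an adjusted p under 0.05 (quasi-likelihood test, Benjamini-Hochberg adjustment), 1.62% of the 13690 tested. The choice of the set fixes that Nfkbid is the member among them, and nothing is read from it. By the size of its fall it ranked 35 among the 131 genes that were lower (0.957%). Groups without overlap were found for 1.67% of all genes in HFD against ND and for 0.716% in SW against ND. The other 9 members overlapped in both.

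Leaving Nfkbid aside, edgeR called 0 of the other 9 members in SW against ND, where 0.0146% of all genes were called. Nfkbiz and Nfkbia, both lower, had an unadjusted p under 0.05, as did 6.81% of all genes, and DESeq2 and limma-voom called 0 of the 9. In SW against HFD edgeR again called 0 of the 9, where 0.124% of all genes were called. Nfkbiz and Tnfaip3, both lower, had an unadjusted p under 0.05, as did 11.1% of all genes. DESeq2 called 1 (Tnfaip3), where it called 0.776% of all genes, and limma-voom 0. The median log2 change of the 10 members was 0.00 in HFD against ND, -0.02 in SW against ND and -0.08 in SW against HFD, where all tested genes had 0.01, 0.00 and -0.00.

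**Figure D2:**
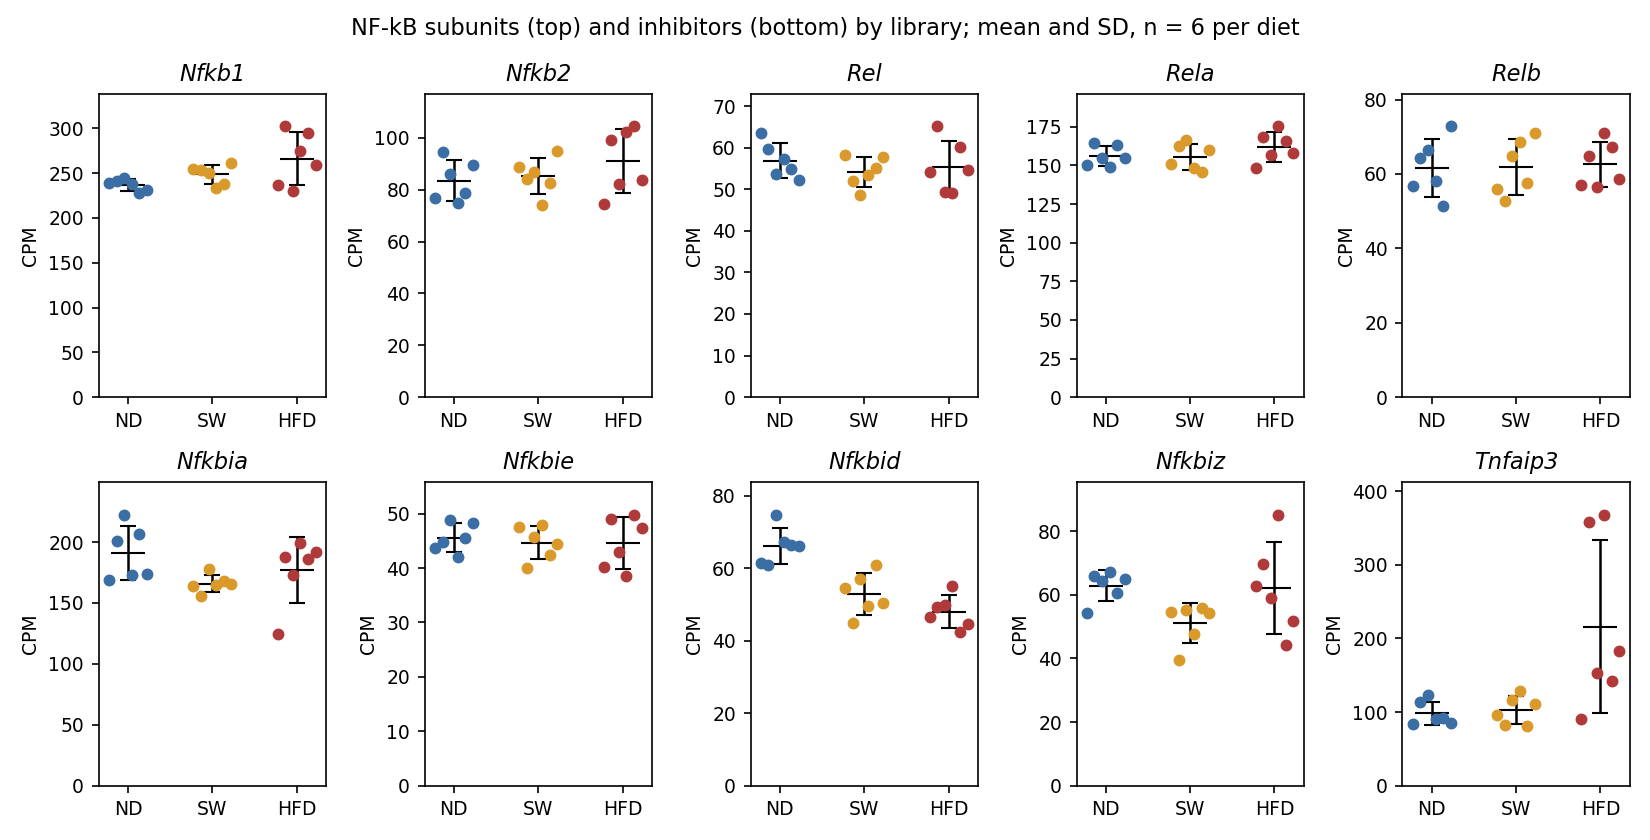
Level of each member in every library (CPM, axes that differ by gene), 1 point per library and the diet mean with its SD as a bar, n = 6 libraries per diet. The ND libraries of Nfkbid lie at 61.1 CPM or above, all HFD and SW libraries below that, and the HFD libraries of Tnfaip3 spread from 91.2 to 368.

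Nfkbiz (ENSMUSG00000035356, chr16:55811375-55838899, minus strand) encodes IkBzeta, the other nuclear IkB-family protein in the set, which acts on secondary response genes. Its levels in ND were 54.2, 64.6 and 67.1 CPM (lowest, median, highest), in SW 39.5, 54.3 and 55.8, and in HFD 44.2, 60.9 and 85.2. All 6 SW libraries were below the ND mean and 3 were below all of ND, while the HFD libraries lay on both sides. The difference SW against ND was -0.30 ± 0.12 (SE; 95% interval -0.55 to -0.04; edgeR adjusted p = 0.635), and SW against HFD -0.28 ± 0.12 (adjusted p = 0.396). Neither passed the test, and without HFD 4 the latter was -0.16. HFD against ND was -0.02 ± 0.12, and without HFD 2 and HFD 4, the libraries with the highest Nfkbiz, it was -0.21 ± 0.10, while SW against HFD became -0.08. Nfkbid differed by -0.53 ± 0.08 in HFD against ND in that fit, which was made after the data were seen.

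Nfkbia (ENSMUSG00000021025, chr12:55489410-55492647, minus strand) encodes IkBalpha, the inhibitor that is destroyed and remade in each pulse of signalling. It measured 169, 187 and 223 CPM in ND, 155, 166 and 178 in SW and 124.6, 187 and 199 in HFD (lowest, median, highest). Of the SW libraries 5 of 6 were below all of ND, and HFD 1 was far below the other 5 HFD libraries. SW against ND was -0.20 ± 0.09 (SE; 95% interval -0.38 to -0.02; edgeR adjusted p = 0.657) and did not pass the test, and HFD against ND was -0.11 ± 0.09. HFD against ND rested on HFD 1, without which it was -0.03 ± 0.06, and it was -0.07 without ND 3. HFD 1 also had the highest sums of myeloid markers (269 CPM) and of dendritic cell markers (107 CPM) of the 18 libraries. Over those libraries Nfkbia and the myeloid sum had r = -0.611 (-0.721 within diets), and the part of these markers in the level of Nfkbia was not tested. The third cytoplasmic inhibitor of the family, Nfkbib, which was not a member, was -0.06 ± 0.07 in SW against ND (edgeR adjusted p = 0.981). Nfkbie (ENSMUSG00000023947, chr17:45555703-45563169, plus strand) encodes IkBepsilon and had close means in the 3 diets: 45.5 ± 2.67 CPM in ND, 44.7 ± 3.04 in SW and 44.6 ± 4.76 in HFD (SD, n = 6). The SW against ND difference was -0.03 (95% interval -0.17 to 0.11).

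**Figure D3:**
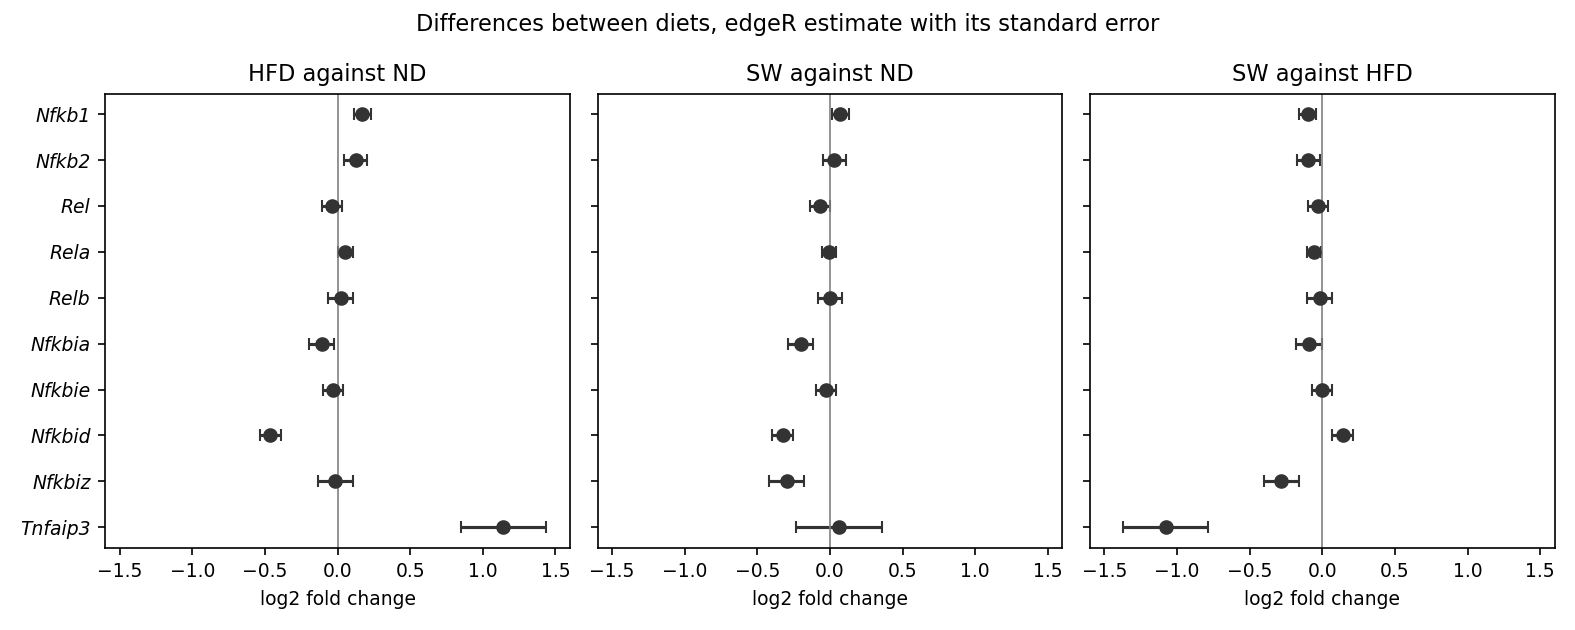
Difference of each member between diets (log2 fold change on the horizontal axis), with the edgeR estimate as a point and its standard error as a bar, 6 libraries per diet. Nfkbid lies at -0.46 in HFD and -0.32 in SW against ND, Tnfaip3 at 1.14 in HFD against ND with the longest bar, and the subunit genes lie within 0.17 of 0.

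The 5 subunit genes differed by at most 0.17 on the log2 scale between any of the diets. Nfkb1 (ENSMUSG00000028163, chr3:135584655-135691547, minus strand) encodes a precursor that is trimmed to a DNA-binding subunit and itself acts as an inhibitor. Its means were 237 ± 6.30 CPM in ND, 248 ± 10.9 in SW and 266 ± 29.9 in HFD (SD, n = 6), and 4 libraries of SW and 4 of HFD were above all of ND. Its SW against ND difference was 0.07 ± 0.06 (edgeR adjusted p = 0.919) and its HFD against ND difference 0.17 ± 0.06. Nfkb2 (ENSMUSG00000025225, chr19:46304320-46312385, plus strand), the counterpart used by the alternative pathway, had 83.5 ± 7.85, 85.2 ± 6.999 and 91.1 ± 12.4 CPM in ND, SW and HFD. Nfkb2 overlaps Psd and AC114539.1 on the opposite strand, with 176 to 358 and 194 to 275 counts, against at least 895 for Nfkb2, and it is not stated whether the libraries kept strand, so reads of the overlapping stretches cannot be told apart.

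Rela (ENSMUSG00000024927, chr19:5637483-5648130, plus strand) had 156 ± 6.47 CPM in ND, 156 ± 8.57 in SW and 162 ± 9.66 in HFD, and its SW against ND difference was -0.01 (95% interval -0.11 to 0.10). Rel (ENSMUSG00000020275, chr11:23736847-23770970, minus strand), which encodes c-Rel, the subunit prominent in activated lymphocytes, had 56.9 ± 4.15, 54.2 ± 3.67 and 55.4 ± 6.29 CPM. Relb (ENSMUSG00000002983, chr7:19606217-19629438, minus strand), the alternative pathway's transactivating subunit, had 61.6 ± 7.73, 61.8 ± 7.50 and 62.6 ± 6.00 CPM (SD, n = 6 each). None of the 5 passed the test in SW against ND or SW against HFD with edgeR, DESeq2 or limma-voom. The 95% intervals of the 10 subunit differences in SW reached no further than -0.26 and 0.19. A p that misses the threshold does not show that levels were equal.

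Tnfaip3 (ENSMUSG00000019850, chr10:19000910-19015657, minus strand) was the member with the widest spread. It measured 84.4, 91.2 and 123 CPM in ND and 81.0, 104 and 128 in SW (lowest, median, highest). The HFD libraries 1 to 6 had 91.2, 359, 153, 368, 142 and 184 CPM, so 5 of 6 were above all of ND and HFD 2 and HFD 4 were far above the others. HFD against ND was 1.14 ± 0.29 on the log2 scale (SE), with means of 216 ± 118 and 98.2 ± 16.1 CPM (SD, n = 6). Without HFD 2 and HFD 4 it was 0.53 ± 0.19. SW against ND was 0.06 (95% interval -0.56 to 0.69; edgeR adjusted p = 0.999), and SW against HFD -1.08 ± 0.29 (95% interval -1.70 to -0.46; edgeR adjusted p = 0.180). The latter shares the HFD libraries with the comparison behind the choice, did not pass edgeR's test, and was -0.47 without HFD 2 and HFD 4. DESeq2 gave an adjusted p of 0.0344 for it, and the alternatives ran from 0.0344 to 0.758.

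The level of Tnfaip3 moved with the summed level of a list of immediate early genes, a class that is switched on within minutes of stimulation. The list also holds the quiescence factor Klf2 (means of 520 CPM in ND and 644 in HFD), so its sum is not a measure of recent stimulation alone. The 26 listed genes summed to 3275 to 5074 CPM in ND, 2985 to 4422 in SW and 3001 to 5779 in HFD, highest in HFD 4. Over the 18 libraries, Tnfaip3 and this sum had r = 0.762, or 0.824 after the diet means were removed and 0.849 without HFD 2 and HFD 4, a description over libraries that share diet and handling. With the summed B cell markers Tnfaip3 had r = 0.721, or 0.623 within diets, and 0.394 within diets without HFD 2 and HFD 4. The B cell sum was 481 to 534 CPM in ND, 507 to 618 in SW and 526 to 682 in HFD, highest in HFD 4, and Ighm made up most of its counts. With the summed erythroid markers r was 0.43, or 0.182 within diets, and with the summed natural killer cell markers 0.503, or 0.122 within diets. The part of these sums in the level of Tnfaip3 was not tested. Nfkbia had r = 0.653 with the immediate early sum (0.714 within diets), and Nfkbid 0.139 (0.474). The summed level of 28 textbook NF-kB target genes also moved with these members. With it Tnfaip3 had r = 0.773 (0.771 within diets, or 0.59 within diets without HFD 2 and HFD 4). Nfkbia had 0.578 with the target sum (0.643 within diets), and Nfkbid 0.183 (0.683). With the myeloid sum Nfkbid had r = -0.564 (-0.392 within diets) and Tnfaip3 0.155 (-0.377 within diets), and the part of that sum in the level of Nfkbid was not tested.

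**Figure D4:**
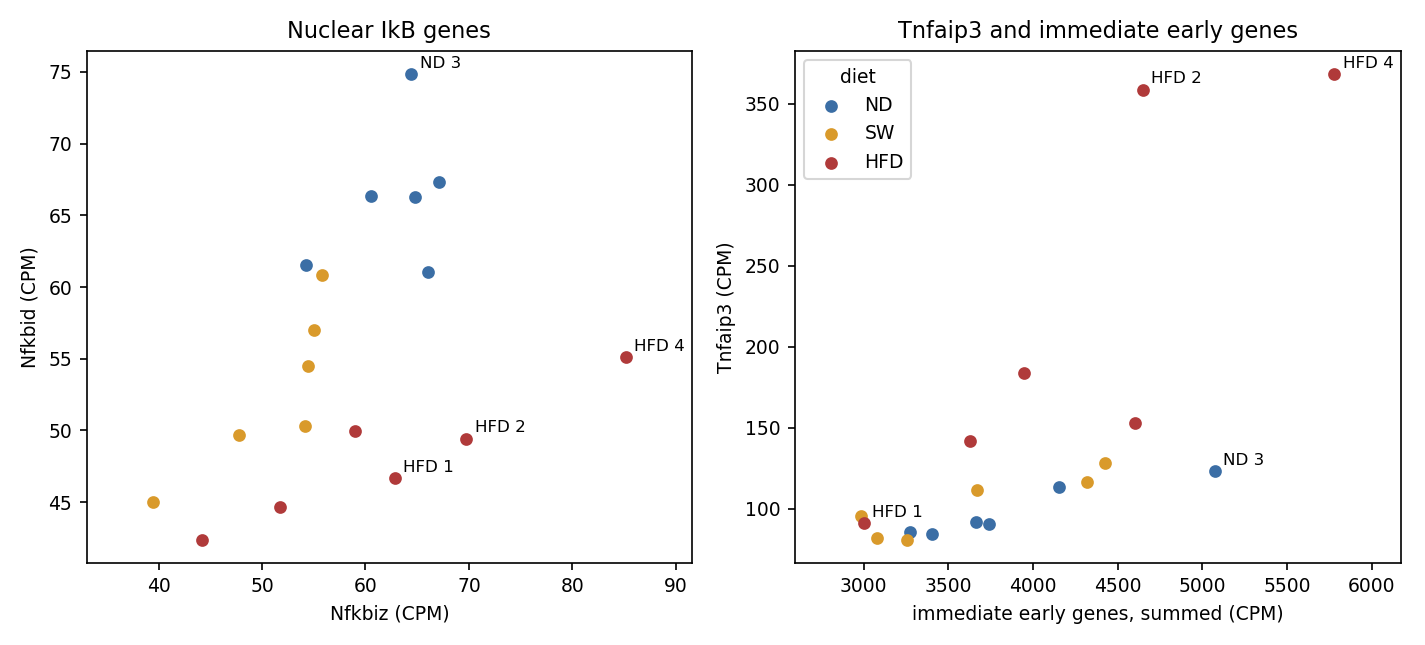
Left, Nfkbid against Nfkbiz, and right, Tnfaip3 against the summed level of 26 immediate early genes (all CPM), 1 point per library coloured by diet. Within HFD both genes on the left are lowest in HFD 5 (Nfkbid 42.4 CPM, Nfkbiz 44.2) and highest in HFD 4 (55.1 and 85.2). On the right, HFD 2 and HFD 4 stand above all other libraries for Tnfaip3.

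Libraries also varied together within diets. Of the 45 pairs of members, 36 had a correlation above 0 after diet means were removed, with a median r of 0.32 and a range of -0.36 to 0.778 (18 libraries). The highest was between the genes of the nuclear IkB-family proteins, Nfkbid and Nfkbiz, at 0.778 (0.718 without HFD 2 and HFD 4, and 0.512 with diet means left in). Next were Nfkb1 with Nfkb2 (0.768), Nfkb2 with Rela (0.718) and Nfkbia with Tnfaip3 (0.716). The lowest was Nfkbid with Rel (-0.36). All are values over the same libraries, and depth or handling shared by a library enters them.

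**Figure D5:**
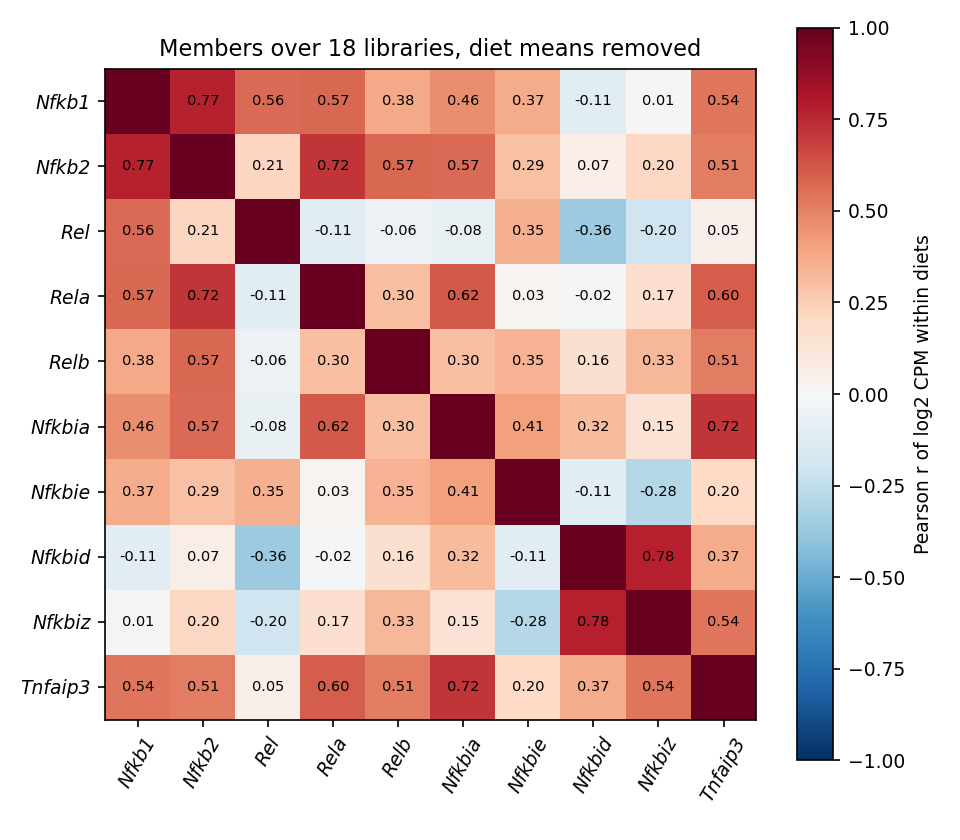
Correlation of log2 CPM between members over 18 libraries after the diet means were removed (colour scale, Pearson r, each cell off the diagonal labelled). The pairs Nfkbid with Nfkbiz (0.778) and Nfkb1 with Nfkb2 (0.768) are the highest of 45.

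Among the 8214 genes with a name and a mean of at least 10 CPM, a count that includes Nfkbid, those most like Nfkbid by the same measure were as follows. They were Slc7a6os (r = 0.81), Htra2 (0.807), Fam32a (0.79), Akap8l (0.781) and the member Nfkbiz (0.778). For Nfkbia they were Tob1 (0.889), Zc3hav1 (0.857), Mcl1 (0.852), Zfp36l2 (0.844) and Tpgs2 (0.842). These are descriptions over 18 libraries.

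The rest of the pathway was taken from lists chosen with earlier results of these data known. Of 25 genes of the activation machinery, which joins the antigen receptor and the TNF receptors to the IkB kinase, 1 was called lower and 0 higher in HFD against ND by edgeR, where 0.957% of all genes were called lower and 0.665% higher, and 3 were higher and 3 lower at an unadjusted p under 0.05 (14.9% of all genes). The gene called was Bcl10, the adaptor that links the antigen receptor complex to the kinase. It averaged 58.2 ± 3.43 CPM in HFD against 69.6 ± 4.52 in ND (SD, n = 6), -0.26 ± 0.05 (SE) on the log2 scale (edgeR adjusted p = 0.0173), with 6 of 6 HFD libraries below the ND mean, and called in all 18 fits that left out 1 library. The median change of the list was 0.04. DESeq2 and limma-voom called the same gene. In SW against ND Bcl10 was -0.18 (edgeR adjusted p = 0.348) and 0 of 25 were called, with 1 at an unadjusted p under 0.05 (6.81% of all genes). In SW against HFD 0 of 25 were called, with 1 at an unadjusted p under 0.05 (11.1% of all genes), Tbk1 (0.11, adjusted p = 0.401). DESeq2 and limma-voom also called 0 in both SW comparisons.

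Of 17 other IkB-family genes and negative regulators 16 could be tested, Tnip3 being too low. In HFD against ND 1 was called lower and 0 higher, against 0.957% and 0.665% of all genes, and 2 were higher and 1 lower at an unadjusted p under 0.05 (14.9% of all genes). The gene called was Zc3h12a, which encodes Regnase-1, an RNase that destroys cytokine transcripts. Its HFD mean was 33.8 ± 2.32 CPM against 41.0 ± 3.84 in ND, -0.28 ± 0.07 (edgeR adjusted p = 0.0381), with 6 of 6 HFD libraries below the ND mean. It was called in 11 of the 18 fits that left out 1 library, with an adjusted p up to 0.0957. In SW against ND it was -0.25 (edgeR adjusted p = 0.263), and 0 of 16 were called, with 1 at an unadjusted p under 0.05 (6.81% of all genes). In SW against HFD the smallest p belonged to N4bp1 (-0.21, adjusted p = 0.287), and 0 of 16 were called, with 1 at an unadjusted p under 0.05 (11.1% of all genes). DESeq2 and limma-voom called 0 in both SW comparisons and Zc3h12a in HFD against ND. The list's medians were 0.06, 0.00 and -0.04 in the 3 comparisons.

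Of 28 textbook NF-kB target genes 27 were tested, Il2 being too low, and in HFD against ND 2 were called lower and 1 higher, where of all genes 0.957% were called lower and 0.665% higher. At an unadjusted p under 0.05, 5 were higher and 4 lower (14.9% of all genes). DESeq2 called 3 lower and 2 higher, adding Gadd45b (lower) and Irf4 (higher), where it called 3.08% of all genes. The genes called by limma-voom were those called by edgeR. Irf1, a transcription factor of the interferon response, averaged 210.2 ± 17.5 CPM in HFD against 271 ± 12.9 in ND, -0.37 ± 0.07 (edgeR adjusted p = 0.00561), with 6 of 6 HFD libraries below the ND mean, and called in 18 of 18 fits without 1 library. Tnf, the inflammatory cytokine, was called lower and Ccl5, the T cell chemokine RANTES, higher. Tnf differed by -0.75 ± 0.16 (edgeR adjusted p = 0.0173). Ccl5 differed by 0.56 ± 0.13 (edgeR adjusted p = 0.0367), and 9 of 18 fits without 1 library called it (adjusted p up to 0.0888). In SW against ND 1 of 27 was called, Tnf, at -0.91 ± 0.16 (edgeR adjusted p = 0.0481), and 9 of 18 such fits called it (adjusted p up to 0.152). DESeq2 also called it there and limma-voom called 0. Bcl2l1, a survival gene, was -0.25 (adjusted p = 0.317) and Gadd45b, a stress response gene, -0.46 (0.326), both with 6 of 6 SW libraries below the ND mean, and neither was called. They were among 6 of 27 with an unadjusted p under 0.05, all lower, against 6.81% of all genes. In SW against HFD 0 of 27 were called, with 9 at an unadjusted p under 0.05 (2 higher and 7 lower, against 11.1% of all genes), and 0 by DESeq2 or limma-voom. The smallest p-values were those of Ccl5 (-0.41, adjusted p = 0.249), the homing receptor Ccr7 (-0.21, 0.258) and Ifng, the gene of interferon gamma (-1.03, 0.269). Ifng was low, with means of 1.70 ± 0.715 CPM in SW and 3.47 ± 1.83 in HFD (SD), and its difference had an SE of 0.35. The medians over the list were 0.03, -0.05 and -0.14.

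Of the 26 immediate early genes 0 were called by edgeR or limma-voom in each comparison. DESeq2 called 1, Cd69, in HFD against ND and in SW against HFD, where it called 3.08% and 0.776% of all genes. In HFD against ND 6 had an unadjusted p under 0.05, where 14.9% of all genes did, and the lowest belonged to the activation marker Cd69 (0.67 ± 0.16, adjusted p = 0.0505), the phosphatase gene Dusp2 (0.69, 0.163) and the quiescence factor Klf2 (0.31, 0.176). In SW against ND 3 had one (6.81% of all genes), Btg2 (-0.26, adjusted p = 0.362), Ier5 (-0.19, 0.487) and Ier2 (-0.34, 0.728). In SW against HFD 3 had one (11.1% of all genes), Cd69 (-0.66 ± 0.16, adjusted p = 0.138), Klf6 (-0.43, 0.325) and Zfp36 (-0.23, 0.443). The medians were 0.07, -0.11 and -0.21 on the log2 scale, where those of all genes were 0.01, 0.00 and -0.00.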

How the data were processed

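Per the labels' protocols, poly-T beads took messenger RNA from total CD8 T cell RNA, and random hexamers primed the cDNA. Reads were processed with fastp and the builds GRCm38 and mm10 were used, per the submitters' processing notes; for aligner, counter and annotation, none is given in the sources used here. Raw counts per gene and FPKM values were deposited by the authors for each library. FPKM equalled the count times a gene factor and a library factor for 9534 genes (largest relative departure 2.5e-09). Symbols and coordinates are from GENCODE M21 (GRCm38), which matched 52125 of 56748 IDs. CD4 T cells and B cells were not analysed here.

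Counts were tested with edgeR 4.0.16 (R 4.3.3; TMM, filterByExpr, robust quasi-likelihood), all 18 libraries in 1 fit, Benjamini-Hochberg over 13690 genes (common biological coefficient of variation 0.115). The code was tested on simulated data. Alternatives used DESeq2 1.42.0, and limma 3.58.1 on counts (voom) or log2(FPKM + 0.1 or 1). Named genes were the members and, per list and comparison, every called gene and those of smallest p up to 3, with the 5 genes most like Nfkbid and Nfkbia. Members and lists were chosen with earlier results of these data known. No pair of libraries of a diet was alike within sampling noise.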

Additional observations from a re-analysis of the deposited data

Results flagged for a closer look

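Nfkbia, the gene of IkBalpha, was 124.6 CPM in the library HFD 1, far below the other 5 HFD libraries, which had 173 to 199 CPM. The gap was large for a group of 6. HFD 1 was also the HFD library with the lowest Tnfaip3 (91.2 CPM) and the lowest summed immediate early genes (3001 CPM), and it had the highest myeloid (269 CPM) and dendritic cell (107 CPM) marker sums of the 18 libraries. Over 30 groups of 6 (10 members in 3 diets) there was 1 such library, which is no more than chance gives, since about 1 group in 20 is picked out by chance.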

How the results depend on the processing

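The set was chosen from HFD against ND, so no calls of members are counted there. Nfkbid is also left out of the counts in the SW comparisons, which share libraries with that choice. Of all genes the main fit called 1.62% in HFD against ND, DESeq2 3.08%, replicates 1 and 2 alone 0.0361% and the fit without HFD replicate 1 2.18%. In SW against ND 0 other members were called. The same held with DESeq2, with no filter on low counts, and with a factor that separates replicates 1 and 2 from the others. These 3 settings called 0.345%, 0.108% and 0.161% of all genes, against 0.0146% in the main fit. In SW against HFD 0 were called (0.124% of all genes) and 1 (Tnfaip3) with DESeq2 (0.776% of all genes). Fits without 1 library called 0 in both SW comparisons. Nfkbid in HFD against ND ran from -0.51 to -0.43 without 1 library, while the number of all genes called ran from 89 to 301. Tnfaip3 moved by over 1.5 times without HFD 2 and HFD 4. Counting error was at most 4.33% of any member's value.

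With the replicate number as a block, 0 members other than Nfkbid were called in the SW comparisons. Of all genes, 4.37% were called in HFD against ND, 0.358% in SW against ND and 1.01% in SW against HFD. Libraries numbered 1 or 2 correlated with those of the same number at 0.119 to 0.219 and those numbered 3 to 6 at -0.0315 to 0.124, so the numbers were not taken to pair the libraries throughout, and 5 of 18 correlated best with their own number. Under the block Relb in SW against ND was -0.0013.

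Of 960 member values under 32 alternatives, 54 changed sign. None was called in either fit, the largest reported size among them was 0.09, and the cause was not tested. In replicates 1 and 2 alone, HFD against ND was 0.14 for Nfkbiz and 0.010 for Nfkbie, SW against ND -0.162 for Relb and -0.157 for Tnfaip3, and SW against HFD 0.025 for Nfkbia and -0.033 for Nfkbie. In replicates 3 to 6 alone, SW against HFD was 0.020 for Rel and 0.056 for Relb. With the erythroid covariate, HFD against ND was 0.067 for Nfkbie and 0.027 for Rel, SW against ND 0.016 for Nfkbie and -0.0035 for Tnfaip3, and SW against HFD -0.051 for Nfkbie. Without HFD 2 and HFD 4, HFD against ND was -0.047 for Relb, and SW against HFD -0.0069 for Nfkbie and 0.051 for Relb. Relb in SW against ND was -0.0035 with limma-voom and -0.0037 with the replicate sets as a factor. Without 1 library, HFD against ND ran from -0.13 to 0.060 for Nfkbiz, -0.068 to 0.0079 for Nfkbie and -0.032 to 0.073 for Relb. SW against ND ran from -0.048 to 0.0045 for Nfkbie, -0.00085 to 0.070 for Nfkb2, -0.024 to 0.015 for Rela, -0.044 to 0.060 for Relb and -0.010 to 0.14 for Tnfaip3. SW against HFD ran from -0.033 to 0.041 for Nfkbie, -0.059 to 0.026 for Rel and -0.057 to 0.031 for Relb.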
